A study of Mus musculus with 9 samples.

Results

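The iron handling and ferroptosis genes described here are Fth1, Ftl1, Tfrc, Slc40a1, Slc11a1, Slc11a2, Ireb2, Gpx4, Acsl4 and Ncoa4, taken by gene symbol from a count table of 21951 genes. All 10 were found and all 10 passed the filter on low counts, as did 11295 genes in all. RNA was sequenced from BV2 cells, an immortalised line of wild-type mouse microglia, in 3 groups of 3 libraries. Triol-treated irradiated cells received a steroid with 3 hydroxyl groups, 5α-androst-3β, 5α, 6β-triol, at 10 µM for 30 min and then 1 X-ray dose of 10 Gy. Irradiated cells received vehicle, 20% hydroxypropyl-β-cyclodextrin, for 30 min before the same dose. Control cells received vehicle and no irradiation. The titles name 1 triol for all 3 treated libraries, while the treatment labels of replicates 2 and 3 place its last hydroxyl elsewhere, and the labels name no vehicle for the treated cells. No group received triol alone, and no source used here gives the interval between the dose and the harvest. BV2 is 1 line, and the labels do not say whether replicates were separate cultures, so the p-values rest on a spread between libraries that may be technical.

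Cells take up iron mainly as transferrin through the transferrin receptor, reduce it and move it out of the endosome, store it in ferritin and export it through ferroportin. Iron regulatory proteins bind a short RNA hairpin, the iron-responsive element, when cytosolic iron is low: in the 5′ UTR of ferritin and ferroportin mRNAs this blocks translation, and in the 3′ UTR of the transferrin receptor mRNA it protects the message from decay. Ferroptosis is a death driven by iron-dependent peroxidation of polyunsaturated phospholipids, which the enzyme ACSL4 helps to make and the selenoenzyme GPX4 repairs. Microglia, the macrophages of the brain, take iron from debris and store it in ferritin.

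The hairpins are shown because they mark the members whose mRNAs are known targets of the iron regulatory proteins, and whether they lie in the 5′ or the 3′ UTR. Transcripts of GENCODE M21 (build GRCm38) were searched on the sense strand for a C, 5 bases, the loop CAGTGN and 5 bases that pair with the first 5 (G with T allowed), and the loop stands in capitals. The 3′ UTR of Tfrc held 4 such hairpins with all 5 pairs, at chr16:32631218-32631247, chr16:32631597-32631626, chr16:32631662-32631691 and chr16:32631709-32631738 on the plus strand, and the 5′ UTRs of Fth1 (chr19:9982731-9982760, plus strand), Ftl1 (chr7:45459779-45459808, minus strand) and Slc40a1 (chr1:45925465-45925494, minus strand) held 1 each. In Slc11a2 a hairpin with 4 of the 5 pairs lay in the 3′ UTR of 1 transcript, Slc11a2-205 (chr15:100395153-100395182, minus strand).
Tfrc hairpin 1: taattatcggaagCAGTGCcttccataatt
Tfrc hairpin 2: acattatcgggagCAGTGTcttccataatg
Tfrc hairpin 3: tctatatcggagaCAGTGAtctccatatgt
Tfrc hairpin 4: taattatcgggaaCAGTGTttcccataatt
Fth1: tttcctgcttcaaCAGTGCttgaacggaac
Ftl1: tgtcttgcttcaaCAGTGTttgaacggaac
Slc40a1: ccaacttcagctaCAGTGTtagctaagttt
Slc11a2-205: gagccatcagagcCAGTGTgtttctatggt
Of the 20900 genes of the count table with an annotated 5′ UTR, 0.1% held a hairpin with all 5 pairs there within the first 200 bases of a transcript. Of the 21681 genes with a 3′ UTR, 0.595% held at least 1, and Tfrc alone held 4 within 600 bases. With 4 pairs allowed, as in Slc11a2, the share was 4.02% for 3′ UTRs. Ireb2, Gpx4, Acsl4 and Ncoa4 had no match, and Slc11a1 had a match with 4 pairs in its coding sequence only. A match of letters is a description and not evidence of binding here, and the counts do not separate the Slc11a2 transcripts with and without the hairpin.

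Libraries held 13879062 to 18944051 counts, and the lowest member value was 565 reads (Slc11a2). Of 12 microglia and macrophage markers 11 had at least 10 reads in every library, while the brain microglia gene P2ry12 had 6 to 14 reads. Their summed level was 2118 to 2170 reads-per-million (RPM) in triol-treated irradiated libraries, 2102 to 2175 in irradiated and 2721 to 2861 in control libraries. Of the 12 markers 9 fell with irradiation (edgeR adjusted p under 0.05), where 22.2% of all tested genes did. Aif1, P2ry12 and Tmem119 did not pass, at 42 to 72, 6 to 14 and 16 to 26 reads. Of 19 hepatocyte markers none had 10 reads in every library, but their sum was 12.3 ± 0.246 RPM in triol-treated irradiated, 2.33 ± 0.764 RPM in irradiated and 1.79 ± 0.996 RPM in control libraries (SD, n = 3 each). The sum of 7 neuron markers was 2.99 ± 0.369 RPM in triol-treated irradiated, 1.80 ± 0.514 RPM in irradiated and 0.377 ± 0.361 RPM in control libraries. Among them Tubb3 had 44, 23 and 33 reads in triol-treated irradiated, 29, 16 and 30 in irradiated and 2, 2 and 0 in control libraries. Snap25, Syt1, Rbfox3 and Gad1 had 0 reads in every library given vehicle and 10 Gy. In triol-treated irradiated libraries they had 2, 10 and 9 (Snap25), 2, 3 and 6 (Syt1), 0, 2 and 3 (Rbfox3) and 0, 1 and 2 (Gad1). In control libraries Snap25 had 1, 5 and 1 reads and Syt1 0, 3 and 0. Rbfox3 had 0, 1 and 0 reads there, and Gad1 0, 0 and 1. Of 6 astrocyte markers Slc1a2 had 18, 28 and 17 reads in triol-treated irradiated, 28, 17 and 23 in irradiated and 10, 9 and 4 in control libraries. Gfap had 6 to 10 reads in triol-treated irradiated, 2 to 12 in irradiated and 1 to 2 in control libraries, and Aqp4 was at 0 throughout. The part of these transcripts in the results was not tested. In bulk RNA fewer cells of a type and less RNA per cell cannot be told apart.

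Per length of merged exons (TPM) the 2 ferritin genes stood far above the rest. The order between genes depends on these lengths, which can exceed that of a coding transcript. Merged exons held 3469 bases for Fth1 and 1340 for Ftl1, where Fth1-201 has 929 and Ftl1-201 has 968. In reads Fth1 stood above Ftl1, with means of 67152 and 30554 in irradiated libraries. In triol-treated irradiated, irradiated and control cells Ftl1 averaged 6103 ± 134, 5945 ± 250 and 6404 ± 429 TPM and Fth1 5075 ± 51.1, 5047 ± 72.6 and 5092 ± 156 TPM (SD, n = 3 each). Tfrc followed at 386 ± 12.9, 382 ± 11.2 and 266 ± 8.45 TPM. Slc11a1, Gpx4 and Acsl4 lay between 207 and 245 TPM in each group. Slc11a1 and Gpx4 did not separate among irradiated libraries, nor Acsl4 and Gpx4 among control libraries. Ncoa4 averaged 83.1 to 90.7 TPM and Ireb2 60.7 to 63.0 TPM over the 3 groups. The lowest pair changed places by this measure. Slc40a1 stood at 36.1 ± 0.819 TPM and 33.5 ± 0.575 TPM in triol-treated irradiated and irradiated cells. Slc11a2 stood lower there, at 25.3 ± 0.886 and 24.7 ± 1.47 TPM. In control cells Slc40a1 had 24.8 ± 0.899 and Slc11a2 26.2 ± 1.01 TPM. That order depends on merged lengths of 9000 bases for Slc40a1 and 6354 for Slc11a2, where Slc40a1-201 has 3370 and Slc11a2-205 has 4415. In reads Slc40a1 stood above Slc11a2 in control cells too, with means of 931 and 692.

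**Figure D1:**
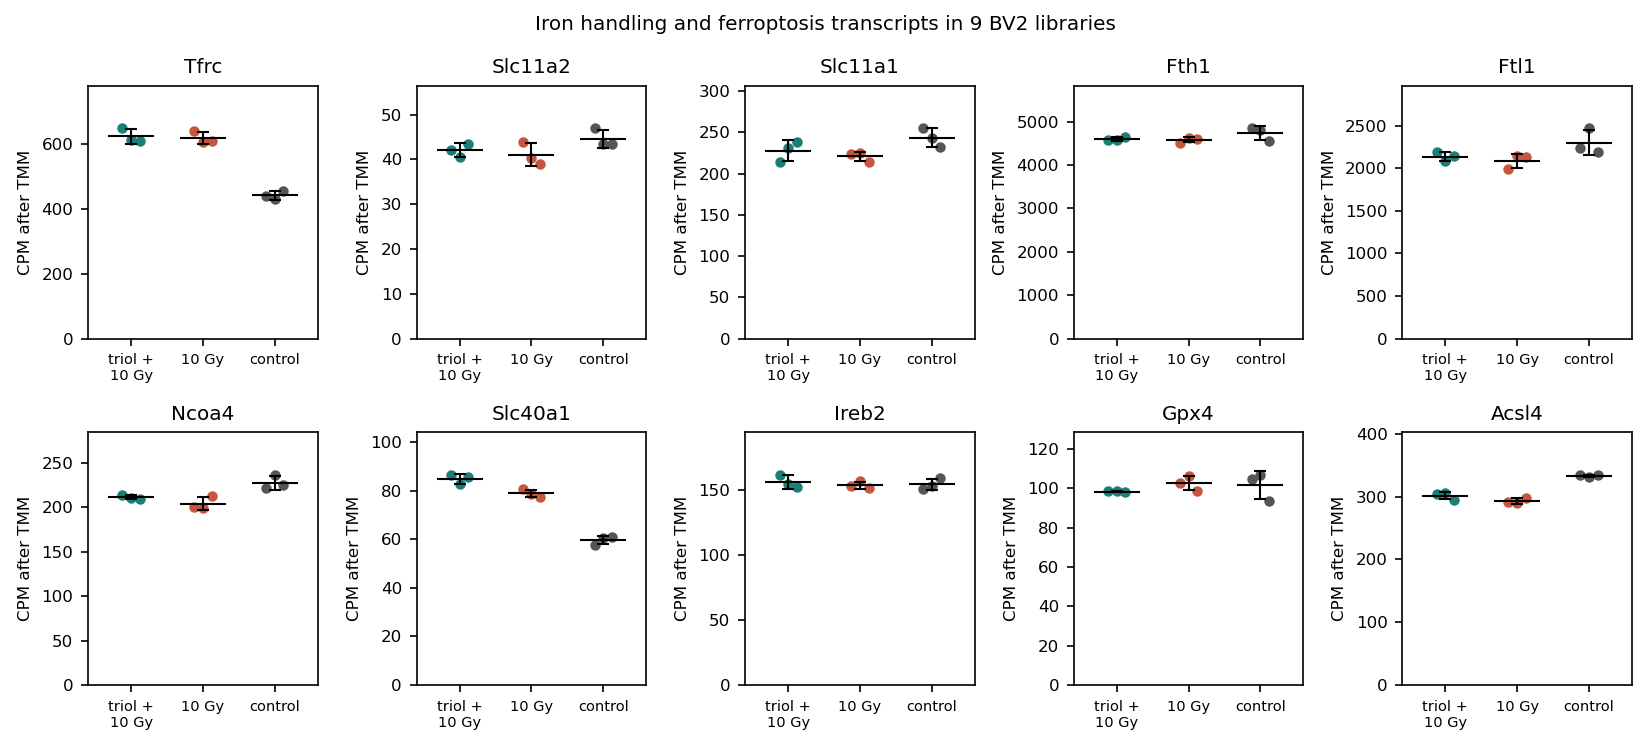
Level of each member in every library (y axis, CPM after TMM scaling, from 0), with the 3 triol-treated irradiated, 3 irradiated and 3 control libraries from left to right as dots and the mean ± SD in black. Tfrc and Slc40a1 are the members in which all 6 irradiated libraries lie above all control libraries, while Fth1, Ireb2 and Gpx4 lie near the same level throughout.

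The first comparison asked how a dose of 10 Gy changed these transcripts. The iron importer Tfrc and the iron exporter Slc40a1 both rose, by 40.2% and 31.9%. Ftl1, Ncoa4, Slc11a1 and Acsl4 fell by 9.19% to 12.1%, and Fth1, Slc11a2, Ireb2 and Gpx4 did not pass the test. Thus 6 of 10 members were called, 2 up and 4 down, where 44.3% of all tested genes were called, 22.1% up and 22.2% down, and groups did not overlap for 6 members, against 50.7% of tested genes. Shares this near the background are no result about the members. The members' median log2 fold change was −0.08, against 0.01 over all tested genes. All values of this kind come from edgeR's quasi-likelihood test with Benjamini-Hochberg adjustment over all 11295 tested genes and a threshold of 0.05.

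Tfrc, the transferrin receptor on chromosome 16 from 32608920 to 32632794, is the main gate for iron entry. It had 641, 606 and 610 CPM (counts-per-million after TMM scaling) in irradiated libraries, against 439, 430 and 455 CPM in control libraries. The groups lay far apart, with the lowest irradiated library well above the highest control library. The log2 fold change was 0.49 (SE 0.03, 95% interval 0.42 to 0.55, adjusted p = 1.4e-16), larger in size than that of 88.8% of tested genes. Slc11a2 encodes DMT1, which carries ferrous iron out of the endosome after transferrin is taken up. It had 43.9, 40.3 and 39.0 CPM in irradiated libraries, against 47.0, 43.4 and 43.4 CPM in control libraries. These values overlapped, and the log2 fold change was −0.12 (95% interval −0.24 to 0.01, adjusted p = 0.13). Without irradiated replicate 1 it was −0.17 and passed (adjusted p = 0.046). Slc11a1 encodes NRAMP1, a metal transporter of the macrophage phagosome, and lies on chromosome 1 from 74375195 to 74386062. It had 223, 225 and 214 CPM in irradiated libraries, against 255, 243 and 233 CPM in control libraries. Every irradiated library was lower than every control library, for a log2 fold change of −0.14 (SE 0.04, adjusted p = 0.0027). The microglia and macrophage markers fell in the same libraries, and their part in this result was not tested.

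The ferritin shell is built from a heavy chain with ferroxidase activity, encoded by Fth1, and a light chain that helps the mineral core to form, encoded by Ftl1. Fth1, on chromosome 19 from 9980598 to 9985098, had 4518, 4630 and 4609 CPM in irradiated libraries, against 4852, 4817 and 4546 CPM in control libraries. Control replicate 3 fell among the irradiated values, and the log2 fold change was −0.05 (95% interval −0.10 to 0.01, adjusted p = 0.16). Without that library it was −0.08 and passed (adjusted p = 0.010). Processed copies of Fth1, Fth-ps2 and Fth-ps3, were not analysed here. Ftl1, on chromosome 7 from 45457944 to 45459884, had 1989, 2143 and 2128 CPM in irradiated libraries, against 2240, 2471 and 2194 CPM in control libraries. The groups did not overlap, and Ftl1 fell by 0.14 on the log2 scale (SE 0.04, adjusted p = 0.0024), or by 0.089 (adjusted p = 0.033) without control replicate 2. The fall in Ftl1 is uncertain because 26.5% of its exonic bases overlap Gm10252 on the other strand, no source used here states whether counting used strand, and Ftl1 has near-identical copies. The copy with counts of its own, Ftl1-ps1, had 14.2, 16.3 and 19.3 CPM in irradiated libraries, against 13.6, 18.6 and 19.0 CPM in control libraries. Ncoa4, on chromosome 14 from 32159865 to 32179855, encodes the receptor that hands ferritin to autophagy so that its iron is released. It had 201, 199 and 212 CPM in irradiated libraries, against 222, 237 and 225 CPM in control libraries. The groups did not overlap, and it fell by 0.16 (SE 0.04, adjusted p = 2.3e-04).

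Slc40a1, on chromosome 1 from 45908068 to 45926523, encodes ferroportin, the only known exporter of elemental iron in mammals. It had 80.6, 78.5 and 77.6 CPM in irradiated libraries, against 57.8, 60.4 and 61.0 CPM in control libraries. The separation was wide, with a log2 fold change of 0.40 (SE 0.05, 95% interval 0.30 to 0.50, adjusted p = 3.9e-09). Ireb2, on chromosome 9, encodes IRP2, an iron regulatory protein that is controlled by its degradation. It had 153, 157 and 151 CPM in irradiated libraries, against 151, 153 and 159 CPM in control libraries. These ranges coincided, and the log2 fold change was −0.01 (95% interval −0.08 to 0.07, adjusted p = 0.92).

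Gpx4, on chromosome 10 from 80047166 to 80056439, had 103, 106 and 98.8 CPM in irradiated libraries, against 105, 107 and 93.4 CPM in control libraries. Its log2 fold change was 0.01 (95% interval −0.08 to 0.10, adjusted p = 0.86), an interval that leaves out a rise of over 7.48% and a fall of over 5.41%. A processed copy, Gpx4-ps2, was not analysed here. Acsl4, on the X chromosome from 142317993 to 142390535, activates arachidonic and adrenic acid for use in phospholipids. It had 292, 289 and 298 CPM in irradiated libraries, against 335, 332 and 334 CPM in control libraries. The groups did not overlap, and Acsl4 fell by 0.19 (SE 0.03, adjusted p = 4.2e-06), the largest fall among the members.

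**Figure D2:**
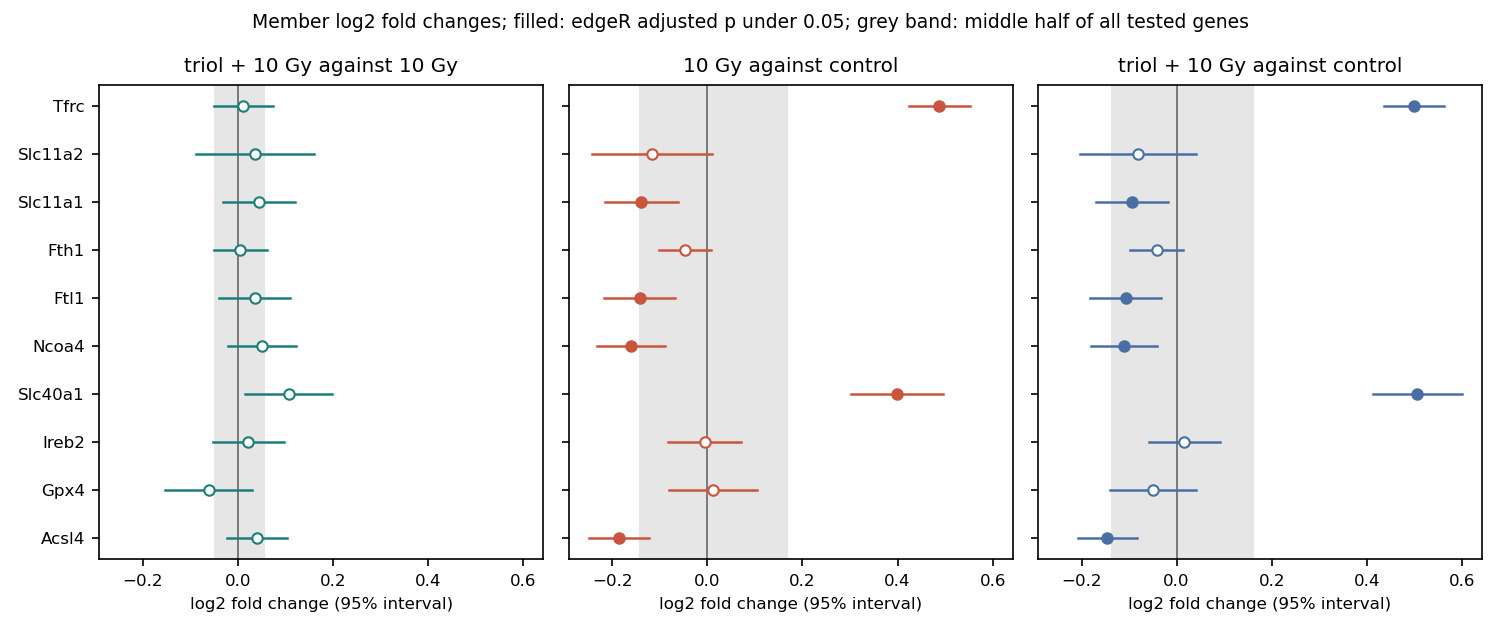
Log2 fold change of each member (x axis, dot with its 95% interval) for triol-treated irradiated against irradiated, irradiated against control, and triol-treated irradiated against control cells. Filled dots passed the adjusted p of 0.05, and the grey band is the interquartile range of all tested genes. Tfrc and Slc40a1 lie to the right of the band in both comparisons with control, and the members that fell lie near its left edge.

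Within a library, ratios of TPM set members against each other independently of library scaling. The size of a ratio depends on the merged exon lengths, while its comparison between groups does not. Tfrc to Fth1 was 0.0795, 0.0734 and 0.0742 in irradiated libraries, against 0.0507, 0.0501 and 0.0561 in control libraries, and the groups did not overlap. Slc40a1 to Tfrc, the exporter against the importer, was 0.0864, 0.0890 and 0.0874 in irradiated libraries, against 0.0905, 0.0965 and 0.0922 in control libraries, a narrow gap that followed from the somewhat larger rise of Tfrc. Fth1 to Ftl1 overlapped, at 0.850 ± 0.0241 in irradiated and 0.797 ± 0.0420 in control libraries (SD, n = 3). Exact two-sided permutation tests over the libraries gave p = 0.1 for Tfrc to Fth1, p = 0.1 for Slc40a1 to Tfrc and p = 0.3 for Fth1 to Ftl1, where 0.1 is the smallest p that 3 libraries against 3 allow. Adjusted over the 15 tests of 5 ratios in 3 comparisons, these exact p-values were 0.375, 0.375 and 0.75. With 3 libraries against 3 no ratio could pass 0.05, so these tests cannot decide whether a ratio changed.

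**Figure D3:**
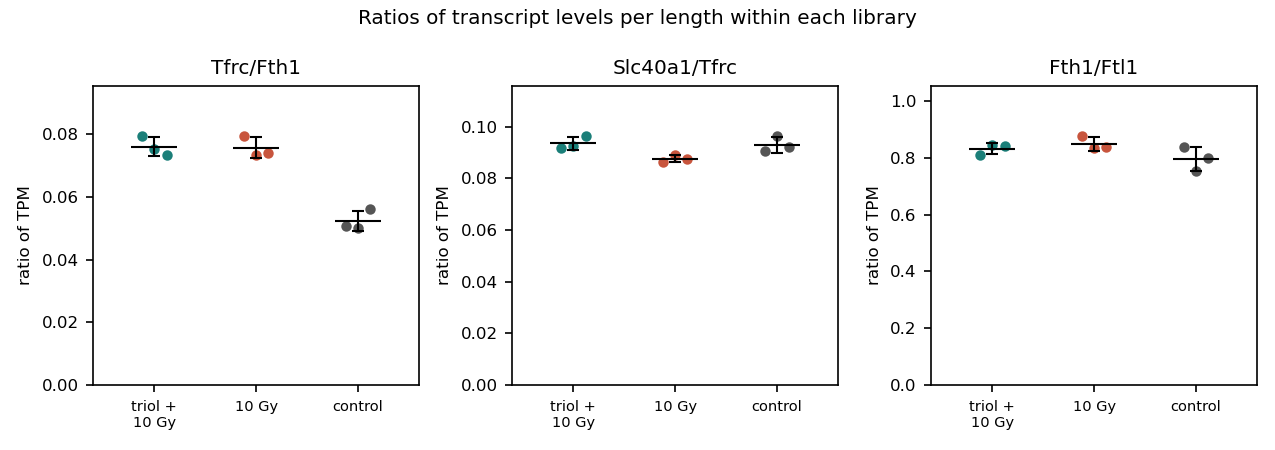
Ratios of transcript levels per length (y axes, ratio of TPM, from 0) in the 3 triol-treated irradiated, 3 irradiated and 3 control libraries, left to right, with the mean ± SD in black. The ratio of Tfrc to Fth1 is higher in all 6 irradiated libraries than in any control library, while that of Fth1 to Ftl1 overlaps between groups.

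By the root mean square difference of centred log2 CPM over the 9 libraries, the tested genes closest in pattern to Tfrc were Ttc39b (0.030), Kpna2 (0.036) and Hsp90aa1 (0.038), where the values of Tfrc span 0.59. The genes closest to Acsl4 were Snx1 (0.012), Atp6v1d (0.015) and Ccdc50 (0.019), where Acsl4 spans 0.21. All of these share libraries and depth with the member.

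Other genes of iron metabolism were taken from 8 lists of 159 genes, of which 128 were tested, and 32 rose and 31 fell, with a median log2 fold change of 0.02. Over all tested genes 22.1% rose and 22.2% fell, with a median of 0.01, so these counts lie near the background. Among 6 tested genes of uptake, reduction and export, 1 rose and 1 fell. Slc39a14, which imports iron not bound to transferrin, rose to 78.5 ± 0.515 CPM in irradiated cells, against 66.8 ± 1.81 CPM in control cells (SD, n = 3; log2 0.23, edgeR adjusted p = 6.6e-05). Steap3, an endosomal ferrireductase that works with the transferrin cycle, fell to 37.0 ± 0.550 CPM, against 47.3 ± 4.06 CPM (log2 −0.35, adjusted p = 6.8e-05). Trf, which encodes transferrin, had 50 to 66 reads in irradiated and 68 to 80 in control libraries (log2 −0.27, adjusted p = 0.25), and 63.5% of its exonic bases overlap Gm20425 on the same strand. Among 7 tested genes of iron chaperones and ferritin turnover, the autophagy receptor gene Tax1bp1 rose by 0.14 and Herc2, a ubiquitin ligase that marks NCOA4 for degradation, fell by 0.19.

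Of 8 tested genes of iron sensing 3 rose and 2 fell. With a library left out 3 to 4 were called in all, with 2 up and 1 down without irradiated replicate 2. The shares over all tested genes were 22.1% up and 22.2% down. Neo1, which encodes neogenin, a co-receptor of hemojuvelin, rose to 8.10 ± 1.05 CPM in irradiated cells, against 1.38 ± 0.119 CPM in control cells (n = 3; log2 2.56, SE 0.19, edgeR adjusted p = 7.3e-15). The ubiquitin ligase subunit gene Skp1a rose by 0.32 and Epas1, which encodes HIF-2α, fell by 0.24. Narfl, of cytosolic iron-sulfur assembly, fell by 0.23 (adjusted p = 0.020), a call lost without control replicate 3 (0.079), irradiated replicate 1 (0.078) or irradiated replicate 2 (0.065). The other iron regulatory protein gene, Aco1, had 46.3 ± 1.24 CPM in irradiated and 45.6 ± 1.16 CPM in control cells (adjusted p = 0.78). Fbxl5, the iron-sensing adaptor through which IRP2 is degraded, had 56.2 ± 2.65 and 59.4 ± 2.95 CPM in irradiated and control cells (adjusted p = 0.23).

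Of 21 tested haem genes 5 rose and 7 fell, with a median of −0.05. Over all tested genes 22.1% rose and 22.2% fell, with a median of 0.01. Hmox1, which frees iron from haem, rose by 0.96 (SE 0.04), and Uros, of haem synthesis, by 0.40, a call lost without control replicate 2 (adjusted p = 0.064) or irradiated replicate 1 (adjusted p = 0.075). Lrp1, a receptor for haem bound to hemopexin, fell to 940 ± 44.9 CPM in irradiated cells, against 1369 ± 66.3 CPM in control cells (log2 −0.54, edgeR adjusted p = 7.8e-13), and Cpox, of haem synthesis, fell by 0.27. Of 28 tested genes of mitochondrial iron and iron-sulfur clusters 5 rose and 2 fell, against the same shares over all tested genes. Lyrm4 and Glrx5, which take part in cluster assembly, rose by 0.30 and 0.24, while the ferredoxin reductase gene Fdxr and Mms19, which delivers clusters to DNA enzymes, fell by 0.36 and 0.16.

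Of 24 tested genes of lipid remodelling and peroxidation 5 rose and 12 fell, with a median of −0.07, where 22.1% of all tested genes rose and 22.2% fell, with a median of 0.01. Lpcat3, which inserts polyunsaturated acyl chains after ACSL4 has activated them, fell to 59.6 ± 4.23 CPM in irradiated cells, against 70.3 ± 1.81 CPM in control cells (n = 3; log2 −0.24, edgeR adjusted p = 2.8e-04). The desaturase gene Scd2 fell by 0.53 and Alox5ap, which presents arachidonic acid to 5-lipoxygenase, by 0.43. Those that rose included the lipoxygenase genes Aloxe3 and Alox15, which stayed at few reads. Aloxe3 had 25 to 40 reads in irradiated and 8 to 12 in control libraries (log2 1.85, SE 0.31), and Alox15 28 to 36 reads in irradiated and 13 to 17 in control libraries (log2 1.08, SE 0.29). Ptgs2, a cyclooxygenase gene often measured alongside ferroptosis, rose to 48.4 ± 2.25 CPM in irradiated cells, against 36.6 ± 4.25 CPM in control cells (log2 0.40, adjusted p = 3.9e-06).

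Of 26 tested genes of cystine, glutathione and radical-trapping defence 12 rose and 5 fell, with a median of 0.15, against 22.1% up, 22.2% down and a median of 0.01 over all tested genes. Slc7a11, of the cystine importer that feeds glutathione to GPX4, rose by 0.50 (SE 0.04), and the quinone reductase gene Nqo1 rose to 4.11 ± 0.465 CPM in irradiated cells, against 1.28 ± 0.141 CPM in control cells (log2 1.67, edgeR adjusted p = 6.6e-08). Aifm2, which encodes FSP1, a suppressor of ferroptosis that works beside GPX4, fell by 0.16 (adjusted p = 0.021), a call lost with upper quartile scaling (0.057), without control replicate 1 (0.10) or without irradiated replicate 3 (0.14). Vkorc1l1, a vitamin K reductase, fell by 0.19, and Cars, the cysteinyl-tRNA synthetase gene, by 0.17. Chac1, which degrades glutathione, had 2.18 ± 0.843 and 1.96 ± 0.416 CPM in irradiated and control cells (adjusted p = 0.69). Of 8 tested genes of selenoprotein synthesis, on which GPX4 depends, Lrp8, a receptor for selenoprotein P, fell by 0.23 and the other 7 were not called. The count was 2 in place of 1 without the filter on low counts, with a replicate block, and without control replicate 1, irradiated replicate 1 or 3 or triol-treated replicate 1 or 2.

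**Figure D4:**
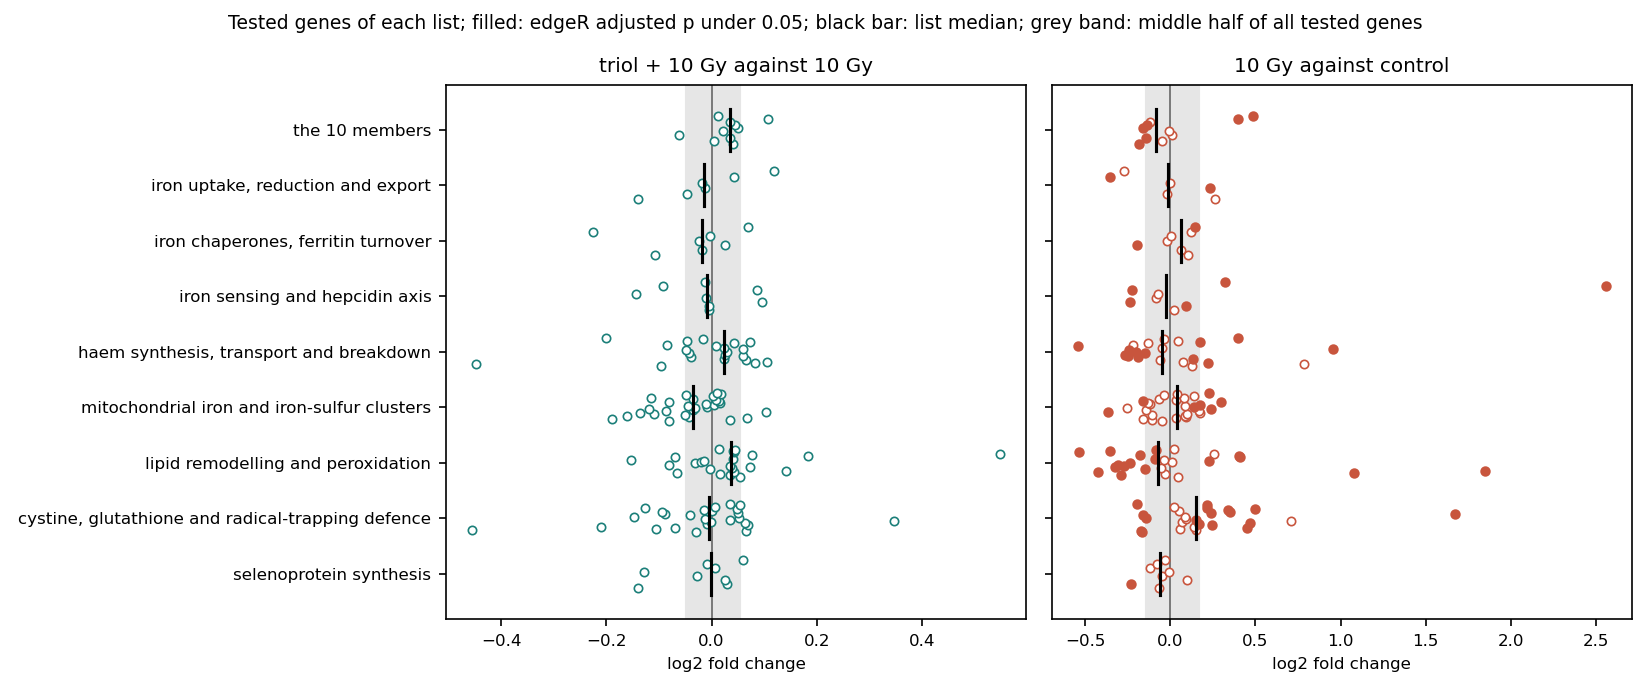
Log2 fold change (x axes, on different scales) of each tested gene of the members and of the 8 pathway lists, for triol-treated irradiated against irradiated cells and for irradiated against control cells. Filled dots passed the adjusted p of 0.05 and black bars are list medians. The grey band is the interquartile range of the log2 fold changes of all tested genes. Filled dots lie on both sides of 0 for 10 Gy against control, and there are none for triol.

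Triol-treated irradiated cells were next set against irradiated cells, which addresses the effect of triol at the same dose. Of the members 0 passed in edgeR, where 0.106% of all tested genes did, and 0 passed in DESeq2 and in limma-voom. The 12 genes called in edgeR included 3 hepatocyte markers, Alb, Serpina1e and Serpina3k. These 3 were higher in the triol-treated libraries, and their source was not tested. At an unadjusted p under 0.05 the count was 1 member, Slc40a1, against 7.66% of tested genes. Slc40a1 had 86.6, 82.6 and 85.6 CPM in triol-treated irradiated libraries, against 80.6, 78.5 and 77.6 CPM in irradiated libraries. Each triol-treated library was higher, but the difference did not hold over all tested genes (log2 fold change 0.11, 95% interval 0.02 to 0.20, edgeR adjusted p = 0.57). The sums of the hepatocyte and of the neuron markers were also higher in the triol-treated libraries, and their part in this value was not tested. Gpx4 had 98.6, 98.3 and 97.9 CPM in triol-treated irradiated libraries, against 103, 106 and 98.8 CPM in irradiated libraries. Its values did not overlap either (log2 −0.06, 95% interval −0.15 to 0.03, adjusted p = 0.81), and groups did not overlap for 2 members, against 13.2% of tested genes.

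Tfrc had 649, 612 and 610 CPM in triol-treated irradiated libraries, against 641, 606 and 610 CPM in irradiated libraries. These ranges largely coincided, with a log2 fold change of 0.01 (95% interval −0.05 to 0.07), so a difference in Tfrc of over 5.28% up or 3.50% down lay outside the interval. The ratio of Slc40a1 to Tfrc in TPM was 0.0917, 0.0927 and 0.0965 in triol-treated irradiated libraries, against 0.0864, 0.0890 and 0.0874 in irradiated libraries. That ratio did not overlap between these groups, with an exact permutation p of 0.1, again the smallest possible, and 0.375 after adjustment. Fth1 averaged 4602 ± 45.8 CPM in triol-treated irradiated and 4586 ± 59.5 CPM in irradiated libraries (SD, n = 3; 95% interval of the log2 fold change −0.05 to 0.06). Acsl4 averaged 301 ± 5.64 CPM in triol-treated irradiated and 293 ± 4.62 CPM in irradiated libraries, with a log2 fold change of 0.04 (−0.02 to 0.10). For Ftl1, Ncoa4, Slc11a1, Slc11a2 and Ireb2 the log2 fold changes lay between 0.02 and 0.05, with adjusted p of 0.79 to 0.94. A p that misses the threshold does not show that the groups were alike. Of the 128 tested pathway genes 0 passed in edgeR, DESeq2 and limma-voom. Over all tested genes 7.66% had an unadjusted edgeR p under 0.05, and of the 128 pathway genes 7 did. Ptgs2 was among these, at 55.0 ± 2.78 CPM in triol-treated irradiated and 48.4 ± 2.25 CPM in irradiated libraries (log2 0.18, 95% interval 0.06 to 0.31, edgeR adjusted p = 0.37). Trf, a liver gene as well, had 54 to 98 reads in triol-treated irradiated and 50 to 66 in irradiated libraries (adjusted p = 0.93).

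The third comparison set triol-treated irradiated cells against control cells, and shares its libraries with both others. Again 6 of 10 members were called, 2 up and 4 down, where 43.3% of tested genes were, 21.5% up and 21.7% down. Groups did not overlap for 5 members, against 51.1% of tested genes. The members called numbered 3 without control replicate 2, and 3 to 8 over all fits with a library left out. Tfrc rose by 0.50 (SE 0.03, edgeR adjusted p = 6.8e-17) and Slc40a1 by 0.51 (SE 0.05, adjusted p = 4.8e-12). Acsl4 fell by 0.15 (SE 0.03, adjusted p = 1.5e-04). Ncoa4 fell by 0.11 (adjusted p = 0.0089), a call lost without control replicate 2 (0.079). Ftl1 fell by 0.11 (adjusted p = 0.019), a call lost with upper quartile scaling (0.065), with limma-voom (0.068), without triol-treated replicate 2 (0.074) and without control replicate 2, where the log2 fold change was −0.058 (0.18). Slc11a1 fell by 0.095 (adjusted p = 0.038), although its groups overlapped. That call was lost with DESeq2 (0.072), with upper quartile scaling (0.11), without control replicate 1 (0.18) or 2 (0.057), and without triol-treated replicate 1, where the value was −0.059 (0.25). Gpx4 had a log2 fold change of −0.05 (adjusted p = 0.39), and of −0.12 (adjusted p = 0.033) without control replicate 3. For Fth1 the value was −0.04 (adjusted p = 0.22), and −0.08 (adjusted p = 0.012) without control replicate 3. Slc11a2 and Ireb2 were not called (−0.08 and 0.02, adjusted p = 0.29 and 0.76). Of the 128 tested pathway genes 31 rose and 35 fell.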

How the data were processed

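RNA-seq was measured in 9 libraries of BV2 cells. The authors deposited raw read counts, as whole numbers with no normalisation. The submitters' processing notes name GRCm38, Subread 1.6.3 (featureCounts), STAR 2.7.1a, FastQC and fastp 0.18.0. No source used here states the strand setting or how multiply mapped reads were treated, which matters most for the members with copies, Ftl1, Fth1 and Gpx4. All 21951 gene IDs matched GENCODE M21 by ID and symbol, and positions (1-based), merged exon lengths and transcript sequences come from it.

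Groups and replicate numbers were read from titles. Counts were tested with edgeR 4.0.16 (R 4.3.3): filterByExpr, TMM, robust quasi-likelihood F tests, 1 fit over 9 libraries, two-sided, Benjamini-Hochberg adjustment, threshold 0.05. SEs are the log2 fold change over the root of F. The biological coefficient of variation was 3.18%. The script was tested on simulated data. Library pairs of 1 group differed beyond counting noise, so all were kept. Alternatives were DESeq2 1.42.0, limma-voom (limma 3.58.1), upper quartile scaling, no filter, 2 groups alone, a replicate block and each library left out. Members and lists were chosen with earlier results of these data known. Named beyond the members are, per list, the 2 called genes with the largest rise and the 2 with the largest fall by irradiation, and 10 set genes; for the members with the largest rise and fall, the 3 genes nearest in pattern.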

Additional observations from a re-analysis of the deposited data

How the results depend on the processing

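For irradiated against control cells the calls of Tfrc, Slc40a1, Ftl1, Ncoa4, Slc11a1 and Acsl4 kept their direction and side of the threshold under all 15 alternatives, with log2 fold changes of 0.46 to 0.52 for Tfrc and 0.37 to 0.43 for Slc40a1. Values near 0 changed sign: with upper quartile scaling Ireb2 was at 0.023 in that comparison, and Fth1 at −0.0033 for triol-treated irradiated against irradiated cells. With each library left out in turn, the log2 fold change for irradiated against control cells ran from −0.026 to 0.010 for Ireb2, from −0.052 to 0.051 for Gpx4, from −3.9e-05 to 0.041 for Aco1 and from −0.11 to 0.44 for Chac1. For triol-treated irradiated against irradiated cells it ran from −0.0097 to 0.0096 for Fth1, from −0.0027 to 0.052 for Ftl1, from −0.023 to 0.033 for Tfrc, from −0.0024 to 0.082 for Slc11a2 and from −0.0092 to 0.036 for Ireb2, and for triol-treated irradiated against control cells from −0.018 to 0.028 for Ireb2. The cause was not tested. The members called in that last comparison numbered 3 to 8 with a library left out. All genes called for triol against irradiated numbered 12, against 19 with DESeq2, 36 without a filter on low counts, 22 with only the 2 groups fitted and 6 to 19 with a library left out (6 without triol-treated replicate 2, 7 without triol-treated replicate 1 or any 1 irradiated replicate, 19 without control replicate 3), and in each of these 0 members were called. With the replicate block 22 genes were called for triol, 0 of them members, and the block changed no member's call. Same-numbered libraries did not deviate together (correlations of −0.055 to 0.059), and not every library correlated best with its own number, so the numbers were not taken as pairs. Depth was lowest for Slc11a2 among the members, and under 100 reads in every library for Aloxe3, Alox15, Nqo1, Chac1 and Trf, while Neo1 had 20 to 23 reads in control libraries.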
